A study of Mus musculus with 9 samples.

Results

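Semaphorins, ephrins, Slits and netrins are the classical cues of axon guidance, and each family signals through its own receptors. Secreted class 3 semaphorins bind neuropilins, which pair with plexins, whereas most membrane-bound semaphorins bind plexins directly. Ephrins are tethered to the cell surface and signal to Eph receptor tyrosine kinases on the neighbouring cell, often in both directions. Slits bind Robo receptors, and netrins bind DCC, neogenin and the Unc5 receptors. Several of these pairs also pattern blood vessels and are expressed by endothelial and mural cells as well as by astrocytes and neurons. Membership was set by symbol alone, as all protein-coding members of the Sema3 to Sema7, Plxn, Nrp, Eph, Efn, Robo, Slit, Ntn and Unc5 families. Earlier results of these data were known when the genes were chosen. The rule gave 68 genes among the 22092 genes with counts, 35 ligands and 33 receptors.

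All mice were 2 months old, of the strain labelled Aldh1L1 JD130, and carried the transgene tg:Aldh1L1-L10aGFP, in which the promoter of the astrocyte gene Aldh1l1 drives a GFP-tagged ribosomal protein L10a. Translating ribosome affinity purification (TRAP) pulls down these ribosomes, and the RNA bound to them is sequenced. Whole astrocyte TRAP (3 libraries) started from 1 whole brain each, and endfeet TRAP (6 libraries) started from brain vessels that were purified mechanically from pooled mice and kept the perivascular endfeet of astrocytes. The paper states removal of the choroid plexus where it describes the whole brains, and does not mention it for the vessels. The comparison asks which guidance mRNAs were more or less represented on tagged ribosomes at the vessel than in the astrocyte as a whole. Both groups carried the transgene, and a library prepared without the tag was not analysed here, so RNA bound without the tag was not measured.

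Gene totals were 35984144 to 43521208 counts in whole astrocyte libraries and 2319495 to 13450588 in endfeet libraries, so 3 counts correspond to 0.0658 to 0.0811 and to 0.197 to 1.37 CPM (counts scaled to the size of the library). Endfeet libraries varied far more among themselves, with a common dispersion of 0.725 against 0.0141 for the whole astrocyte libraries. By the numbers that the deposited tables carry, endfeet libraries 1 to 3 belong to a series A and all others to a series B, and what the series stand for is not stated. Of the 68 genes, 65 to 68 had a count in each whole astrocyte library, and 61, 66, 68, 66, 66 and 54 in endfeet libraries 1 to 6. Markers of vascular cells differed between the groups. The summed level of 16 endothelial markers was 48.7 to 58.6 CPM in whole astrocyte and 4598 to 6837 CPM in endfeet libraries, and Ly6c1 was at 0 in every whole astrocyte library. The 14 mural markers summed to 62.3 to 80.0 CPM against 4273 to 8896 CPM, and the 10 fibroblast markers to 35.0 to 49.4 CPM against 1077 to 1890 CPM. Microglia and macrophage markers (12) summed to 33.7 to 37.99 CPM against 269 to 453 CPM, and ependymal and choroid plexus markers (10) to 82.0 to 1532 CPM against 6971 to 90140 CPM. The 14 astrocyte markers summed to 38270 to 39560 CPM against 11790 to 33390 CPM, the 12 neuronal markers to 4582 to 5284 CPM against 1384 to 2339 CPM, and the 10 oligodendrocyte markers to 715 to 724 CPM against 256 to 567 CPM. The 7 markers of oligodendrocyte precursors summed to 258 to 272 CPM against 135 to 288 CPM. All 16 endothelial and all 14 mural markers passed the test as higher in endfeet TRAP, as did 9 of 10 fibroblast, 9 of 10 ependymal and choroid plexus and 8 of 12 microglia and macrophage markers, none of these lists having a lower call. Of the astrocyte markers, 1 (Aqp4, the water channel of endfeet) was higher and 7 were lower. Lower calls were also made for 4 of 12 neuronal, 1 of 10 oligodendrocyte and 2 of 7 precursor markers, and the 2 precursor markers called higher, Pdgfra and Cspg4, also stand in the fibroblast or mural list. The part of these cell types in the results that follow was not tested.

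**Figure D1:**
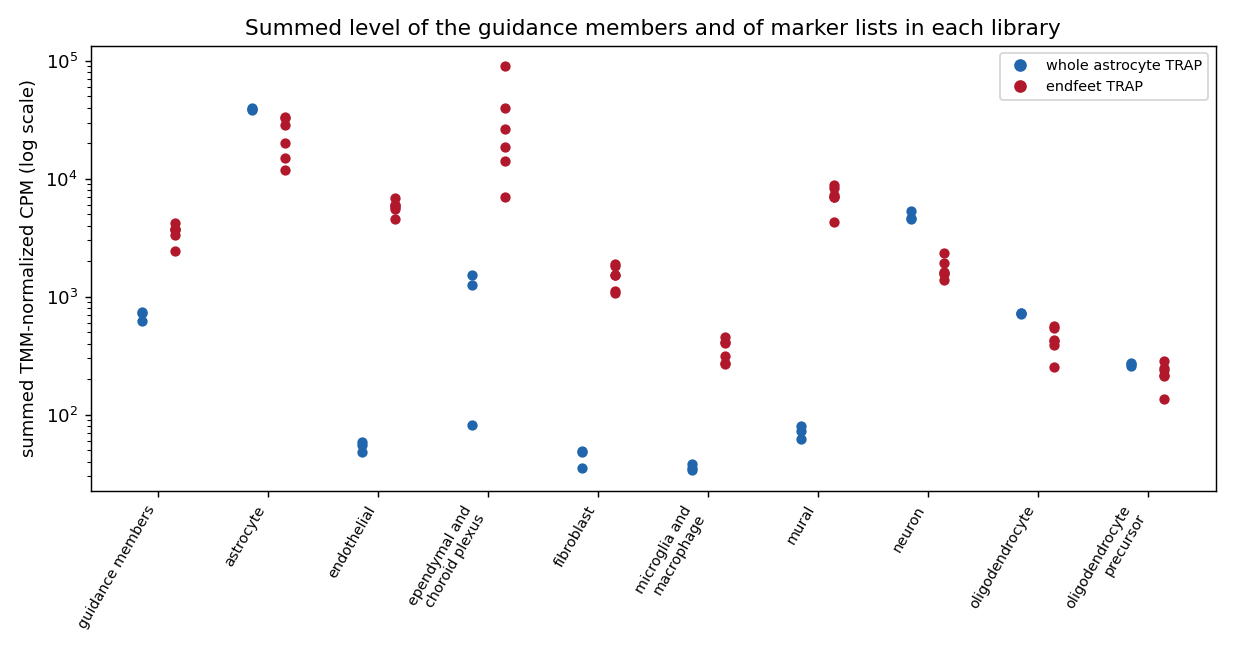
Summed CPM (log scale) of the 68 guidance genes and of each marker list, with 1 point per library, whole astrocyte TRAP in blue and endfeet TRAP in red. Endothelial and mural sums lie between 48.7 and 80.0 CPM in the whole astrocyte libraries and between 4273 and 8896 CPM in the endfeet libraries.

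Of the 68 guidance genes, 35 were higher in endfeet TRAP and 0 were lower, while 30 did not pass the test and 3 (Robo3, Sema6c and Ntn5) were too low to be tested (edgeR quasi-likelihood test, Benjamini-Hochberg adjusted p over all genes, threshold 0.05). Over all 14427 genes tested, 34.6% were called, 20.7% as higher and 13.9% as lower. With limma voom and group weights, that split was 3931 genes higher and 4493 lower, against 2991 and 2006. The median log2 fold change (endfeet minus whole astrocyte) was 2.14 over the 65 guidance genes tested and 0.10 over all genes, with guidance genes spanning -1.44 to 10.69. In 34 guidance genes every endfeet library lay above every whole astrocyte library, and in 0 every endfeet library lay below. The same separation was found above in 18.9%, below in 23.8% and in either direction in 42.7% of all genes tested. At an unadjusted p under 0.05 edgeR gave 40 guidance genes as higher and 0 as lower. DESeq2 called 39 higher and 0 lower (43 and 0 unadjusted), and limma voom called 42 higher and 2 lower, Efna2 and Ephb1 (42 and 3 unadjusted). In libraries of a mixed tissue, fewer cells of a type and less RNA per cell cannot be told apart.

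The expression filter bears on these counts. Of the 65 genes tested, 54 reached the minimum of edgeR's filterByExpr in all 3 whole astrocyte libraries, with 27 higher, 27 not passing and 0 lower. The other 11 (Efna1, Efna4, Epha1, Epha2, Epha3, Epha8, Ephb2, Robo4, Sema3f, Sema3g and Sema4c) entered the test through the endfeet libraries, and 8 of them were higher. Without endfeet libraries 1 and 6, the shallowest, 42 guidance genes were called, 34 of them among the 35. Leaving out whole astrocyte library 1, 2 or 3 gave 26, 25 or 27 calls, all among the 35. Over all genes, the calls numbered 4997 as reported and 7388 without endfeet libraries 1 and 6. Without whole astrocyte library 1, 2 or 3 they numbered 3130, 3071 and 3160.

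**Figure D2:**
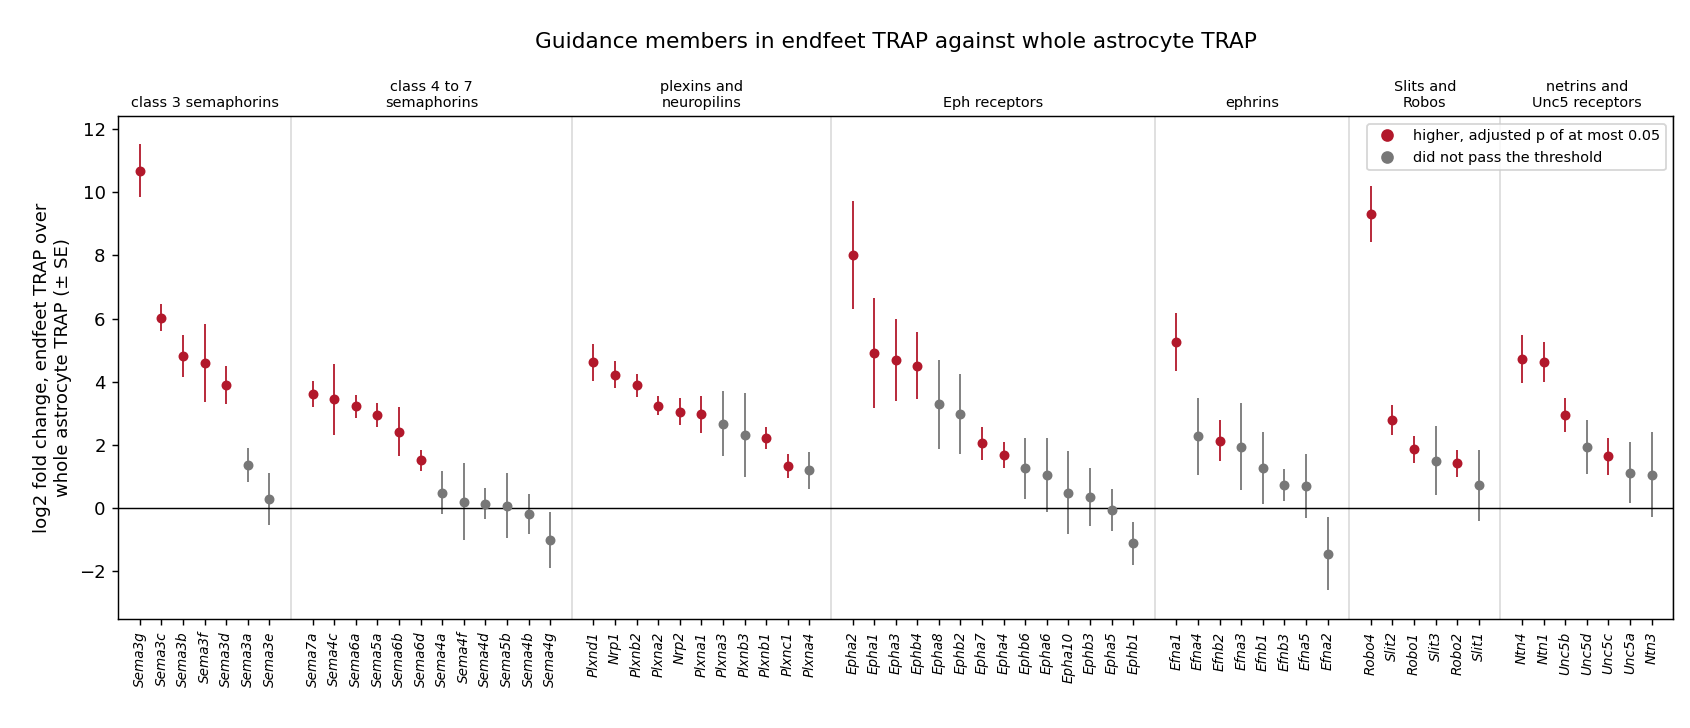
Log2 fold change (endfeet minus whole astrocyte TRAP) of the 65 guidance genes tested, by family, with bars of ± SE, red for genes that passed the test as higher and grey for the others. Values run from -1.44 for Efna2 to 10.69 for Sema3g, and no gene passed on the negative side.

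The summed level of all 68 genes was 726, 628 and 736 CPM in the whole astrocyte libraries and 4208, 3682, 3340, 3720, 3736 and 2450 CPM in endfeet libraries 1 to 6. From 22 to 26 of the genes exceeded 10 CPM in a whole astrocyte library and 38 to 47 in an endfeet library. One gene headed the list in every whole astrocyte library, Sema6d, a membrane semaphorin and plexin-A ligand. In endfeet libraries the most abundant guidance gene was Nrp1 (libraries 1 and 6), Plxna2 (2 and 3), Sema6d (4) or Plxnb1 (5). Per kilobase of the counted transcript, Nrp1 had the highest mean endfeet level of the 68, 71.5 CPM per kilobase against 3.82 in whole astrocyte TRAP, and Sema6d followed with 44.8 against 15.6. The next mean endfeet levels, on the same scale, were 30.9 for Ntn4, 28.5 for Sema3c and 27.2 for Sema7a. In whole astrocyte TRAP those 3 genes had 1.18, 0.436 and 2.21 CPM per kilobase. Sema4a, Ephb1, Efnb3 and Epha4 stood next to Sema6d in whole astrocyte TRAP, with 6.51, 6.39, 6.35 and 5.78 CPM per kilobase.

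**Figure D3:**
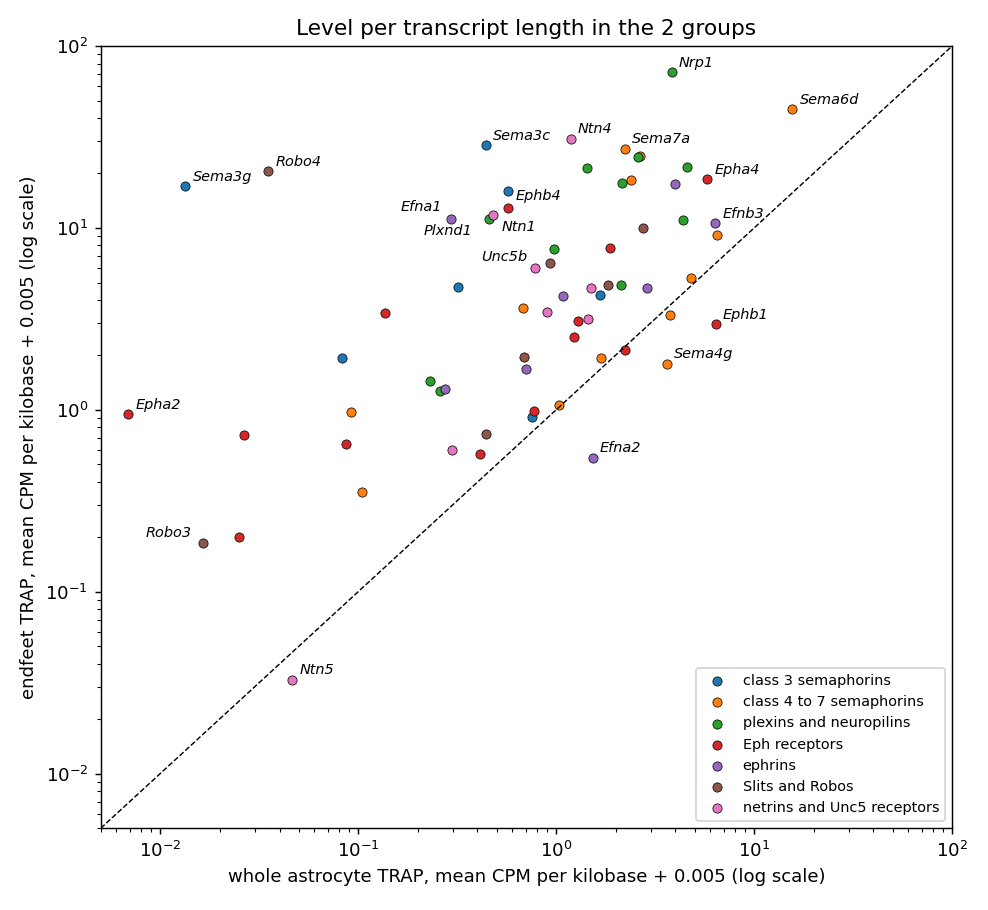
Mean CPM per kilobase of the counted transcript, whole astrocyte TRAP (n = 3) against endfeet TRAP (n = 6), on log axes with 0.005 added and the line of equal levels dashed. Sema3g (0.00839 and 17.0) and Robo4 (0.0300 and 20.5) lie farthest above the line, and Efna2, Ephb1 and Sema4g are the labelled genes clearly below it.

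Class 3 semaphorins, the secreted ligands of neuropilin and plexin complexes, had the highest median log2 fold change of the 7 families, 4.60. Of 7 genes 5 were higher, beside 20.7% of all genes tested, and 2 did not pass. Among the 5, Sema3f and Sema3g entered the test through the endfeet libraries, and the family median is the value of Sema3f. Sema3g, a ligand of Nrp2 known from arterial endothelium (chr14:31217860-31230352, mm10, plus strand), had 0, 1 and 4 counts in the whole astrocyte libraries, or 0, 0.0265 and 0.0878 CPM. Endfeet libraries 1 to 6 had 71.5, 105, 94.9, 58.4, 92.1 and 40.2 CPM. The log2 fold change was 10.69 (adjusted p = 1.26e-06, SE 0.84), and 2 of the whole astrocyte values were below what 3 counts give. Sema3c (chr5:17574281-17730268, plus strand), which acts through neuropilins and Plxnd1 in vessel and heart development, had 2.81, 1.99 and 2.39 CPM in whole astrocyte TRAP. In endfeet it had 86.8 to 194 CPM with a median of 166, a log2 fold change of 6.03 (adjusted p = 5.06e-07, SE 0.42). Its lowest endfeet library was still far above its highest whole astrocyte library. Sema3b stood at 1.49, 2.04 and 1.89 CPM against 12.8 to 81.4 CPM (median 48.4), with a log2 fold change of 4.82 (adjusted p = 0.00013, SE 0.67).

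The remaining class 3 members were lower in level or less separated. Sema3d had 1.78, 2.25 and 1.91 CPM against 19.0 to 44.7 CPM (median 27.7), a log2 fold change of 3.91 (adjusted p = 0.000268, SE 0.60). Sema3f had a log2 fold change of 4.60 (adjusted p = 0.0113, SE 1.23) from levels of 0.162 to 0.417 CPM in whole astrocyte TRAP, and the call was lost without whole astrocyte library 1 or 2 (adjusted p = 0.0704 and 0.0702). Sema3a, the prototype collapsing cue of growth cones, lay above in every endfeet library, at 13.7 to 42.2 CPM (median 24.9) against 10.1, 8.23 and 11.2 CPM. It had the highest whole astrocyte level of the class per length (1.66 CPM per kilobase), and its log2 fold change of 1.37 (adjusted p = 0.0706, SE 0.55) did not pass with edgeR. The same gene passed with DESeq2 (adjusted p = 0.00534), limma voom (0.00702), after thinning of all libraries to the smallest (0.0356) and without endfeet library 6 (0.0258). Sema3e, the direct ligand of Plxnd1, had a log2 fold change of 0.29 (adjusted p = 0.81, SE 0.82) with overlapping groups.

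Membrane-bound semaphorins signal mainly at cell contacts. Of 13 genes in classes 4 to 7, 6 were higher, 6 did not pass and Sema6c was not tested, with a median log2 fold change of 1.01. Class 6 had 3 of 3 tested genes higher and class 4 had 1 of 6, a difference that was not tested, beside 20.7% of all genes. The class 4 gene called, Sema4c, entered the test through the endfeet libraries. Sema7a, a GPI-anchored ligand of Plxnc1 and integrins, showed the largest log2 fold change of the group. It had 9.001, 6.14 and 6.74 CPM in whole astrocyte TRAP and 53.7 to 113 CPM (median 96.1) in endfeet, a log2 fold change of 3.62 (adjusted p = 3.07e-05, SE 0.42). Sema6a, a ligand of Plxna2 and Plxna4, had 21.2, 14.6 and 18.3 CPM against 107 to 225 CPM (median 171), with a log2 fold change of 3.23 (adjusted p = 2.53e-05, SE 0.37). In both genes the 2 groups were far apart. Sema4c changed from 0.568, 0.132 and 0.285 CPM to 0.914 to 6.94 CPM (log2 fold change 3.45, adjusted p = 0.0309, SE 1.13). That call did not hold without any 1 of the whole astrocyte libraries (adjusted p = 0.0855, 0.166 and 0.148), with the library number series as a covariate (0.0969), in series B alone (0.0647) or with no filter beyond 1 count (0.0508). Sema4c also shares 8.85% of its counted transcript with a gene on the opposite strand.

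Sema5a was also higher, with 27.8, 24.5 and 24.7 CPM against 85.4 to 256 CPM (log2 fold change 2.96, adjusted p = 7.07e-05, SE 0.38). Sema6b was higher as well (2.43, adjusted p = 0.0296, SE 0.79) and lost its call without any 1 whole astrocyte library (adjusted p = 0.0914 to 0.132) and without endfeet library 5 (0.0756). The most abundant semaphorin of both groups, Sema6d (chr2:124089969-124667770, plus strand), had 105, 82.6 and 104 CPM in whole astrocyte TRAP. Endfeet libraries held 327, 205, 217, 459, 280 and 185 CPM, and every value lay above the whole astrocyte range. Its log2 fold change of 1.52 (adjusted p = 0.00331, SE 0.33) held in every alternative run. The 6 genes that did not pass (Sema4a, Sema4f, Sema4d, Sema5b, Sema4b and Sema4g) had log2 fold changes of 0.49 down to -1.003 and overlapping groups. Sema4d, the ligand of Plxnb1, had 20.3, 18.3 and 26.01 CPM against 12.98 to 39.6 CPM (log2 fold change 0.14, adjusted p = 0.851, SE 0.49).

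**Figure D4:**
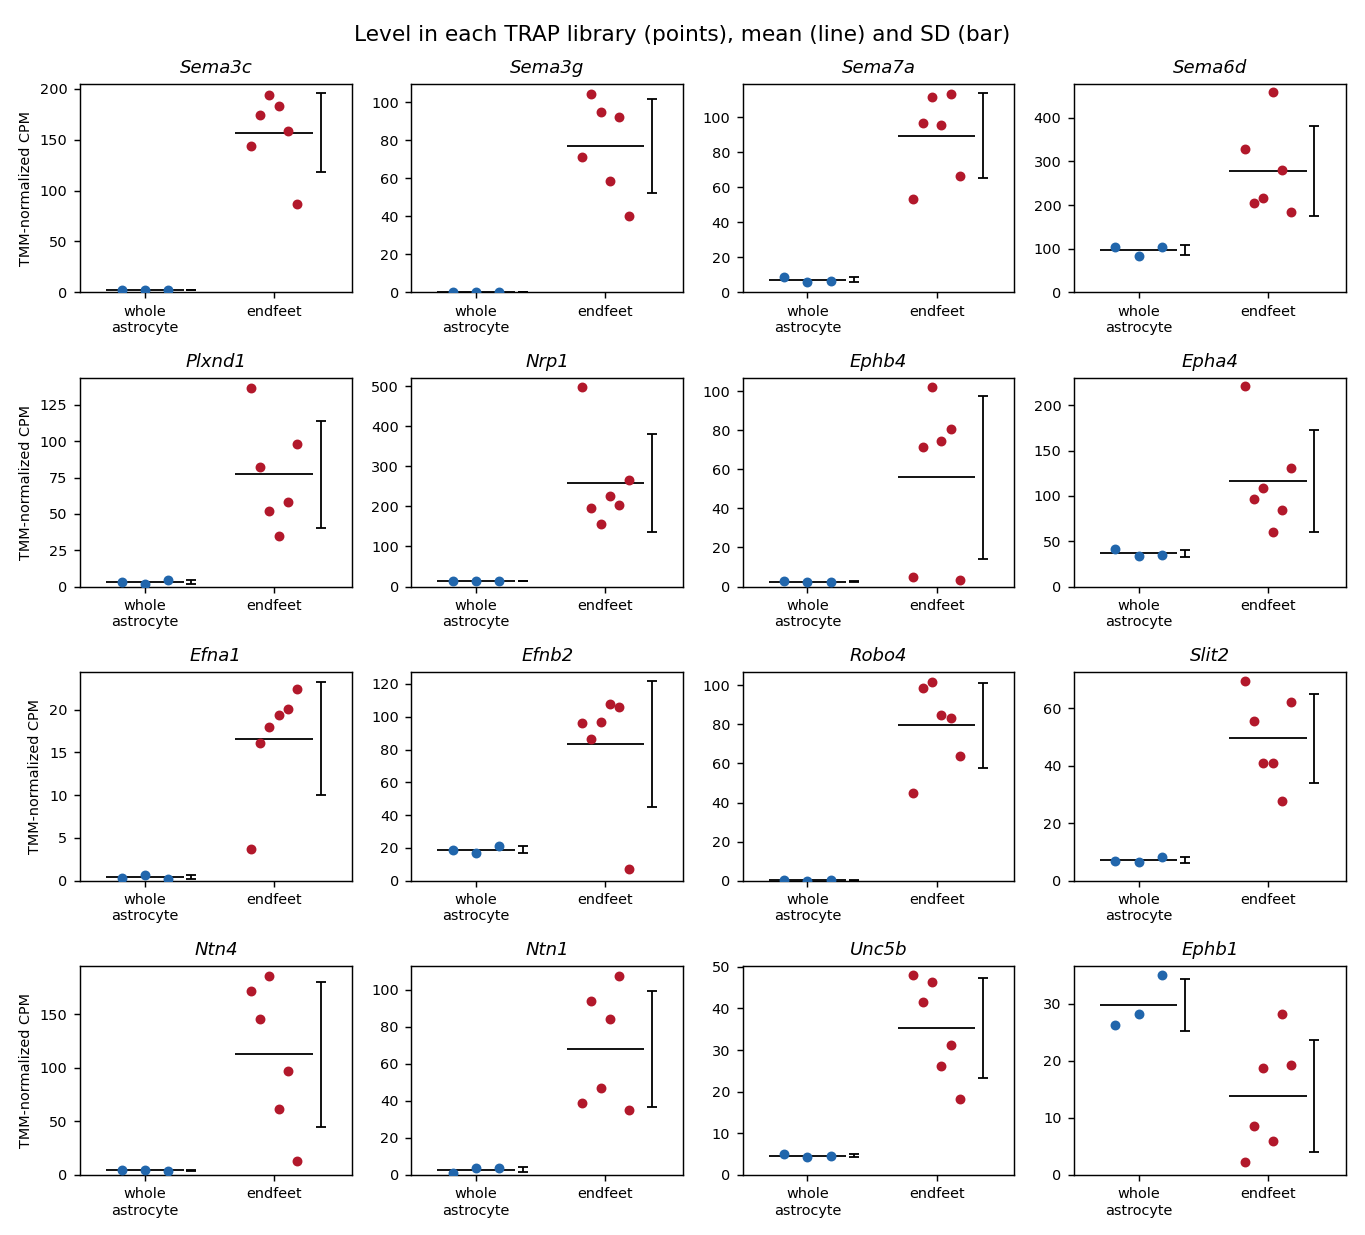
TMM-normalized CPM of 16 ligands and receptors in each library (points, linear axes scaled per gene), whole astrocyte TRAP in blue and endfeet TRAP in red, with the mean as a line and the SD as a bar. Sema3g, Sema3c, Robo4 and Plxnd1 show groups that do not overlap, whereas Efnb2 has endfeet library 6 (6.85 CPM) below the whole astrocyte values.

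Semaphorin receptors were higher in 8 of 11 cases, beside 20.7% of all genes tested. The other 3 did not pass, and the median log2 fold change of the family was 2.97. Both neuropilins were among the 8. Nrp1, the co-receptor of class 3 semaphorins and of VEGF-A (chr8:128358604-128503363, plus strand), had 14.2, 14.0 and 13.1 CPM in whole astrocyte TRAP and 496, 195, 157, 227, 205 and 265 CPM in endfeet libraries 1 to 6. Its whole astrocyte values were close together (mean 13.8 ± 0.572 CPM, SD, n = 3), and its endfeet mean was 257 ± 122 CPM (SD, n = 6). The log2 fold change was 4.23 (adjusted p = 1.03e-05, SE 0.43). Plxnd1, the endothelial plexin (chr6:115954811-115995005, minus strand), had 2.87, 2.06 and 4.41 CPM against 34.6 to 137 CPM (median 70.4). Its log2 fold change of 4.62 (adjusted p = 6.11e-05, SE 0.59) was the highest among plexins. Plxnb2 followed, with 7.65, 8.39 and 11.8 CPM against 108 to 190 CPM (median 127), a log2 fold change of 3.90 (adjusted p = 5.06e-06, SE 0.37). None of these receptors had an endfeet library within the whole astrocyte range.

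Plxna2 (log2 fold change 3.25, adjusted p = 3.75e-06, SE 0.29), Nrp2 (3.05, adjusted p = 0.000134, SE 0.43) and Plxna1 (2.97, adjusted p = 0.00177, SE 0.59) were also higher. Plxna1 shares 10.74% of its counted transcript with an antisense gene. Plxnb1, the Sema4d receptor, had the highest whole astrocyte level of the receptor family per length, 4.59 CPM per kilobase against 21.5 in endfeet. Library by library it had 38.7, 37.1 and 43.4 CPM against 109 to 292 CPM (median 190), a log2 fold change of 2.23 (adjusted p = 0.000327, SE 0.35). Plxnc1, the Sema7a receptor, had a log2 fold change of 1.34 (adjusted p = 0.0134, SE 0.37), and the call was lost without any 1 of the whole astrocyte libraries (adjusted p = 0.0542 to 0.0731). The 3 plexins that did not pass were Plxna3 (2.67, adjusted p = 0.0604), Plxnb3 (2.32, adjusted p = 0.193) and Plxna4 (1.20, adjusted p = 0.126). Plxna3 lay above in every endfeet library and passed with DESeq2 (adjusted p = 0.00428), limma voom (0.00638) and without endfeet library 6 (0.0364), and Plxna4 had its lowest value, 12.95 CPM, in endfeet library 1 and passed without it (0.0194) and with limma voom (0.00912).

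Known ligand and receptor partners can be read side by side on the length scale. Sema3c with its receptors Nrp1 and Plxnd1 had mean endfeet levels of 28.5, 71.5 and 11.2 CPM per kilobase, against 0.436, 3.82 and 0.451 in whole astrocyte TRAP. For Sema6a and Plxna2 they were 24.7 and 24.6 CPM per kilobase in endfeet and 2.63 and 2.59 in whole astrocyte TRAP. Sema4d and Plxnb1 had 5.29 and 21.5 CPM per kilobase in endfeet and 4.81 and 4.59 in whole astrocyte TRAP. In the Sema4d pair the receptor was called and the ligand was not, and in the other 2 all members shown were called. Plxna4, also a receptor of Sema6a, was not called and had 4.84 CPM per kilobase in endfeet and 2.11 in whole astrocyte TRAP. These are examples and not all known pairs. Sema3e, the direct ligand of Plxnd1, was not called although its receptor was.

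Eph receptors were higher in 6 of 14 genes (42.9%), beside 20.7% of all genes tested, with 8 not passing and a median log2 fold change of 1.86. The calls fell on 5 of 9 EphA and 1 of 5 EphB genes, a difference that was not tested. Epha1, Epha2 and Epha3, all called higher, entered the test through the endfeet libraries, as did Epha8 and Ephb2. Epha2, an ephrin-A1 receptor of endothelium and epithelium, had 0, 0 and 1 counts in whole astrocyte TRAP (0.0220 CPM in the third library) and 0.724 to 9.51 CPM (median 2.28) in endfeet. That is 219 counts over the endfeet libraries against 1, a depth-scaled ratio of 459 with an exact 95% interval of 81.5 to 18210 that covers counting error only. The adjusted p was 0.0029. Epha1 (4.92, adjusted p = 0.0443, SE 1.75) and Epha3 (4.68, adjusted p = 0.0136, SE 1.30) were less firm. Epha1 had 0.0541, 0.0265 and 0.132 CPM in whole astrocyte TRAP and overlapped it with 0.0805 CPM in endfeet library 4, its highest endfeet value being 10.51 CPM (median 0.802). It shares 7.21% of its counted transcript with the Zyx gene on the opposite strand, and its call was lost with the series covariate (log2 fold change 1.86, adjusted p = 0.379), without any 1 whole astrocyte library (0.117 to 0.175), with no filter beyond 1 count (0.0625) and with counts summed over transcripts (0.0548). Epha3 had 0.649, 0.688 and 0.900 CPM against 42.6, 16.2, 17.0, 5.15, 34.5 and 0 CPM, and lost its call without any 1 whole astrocyte library (adjusted p = 0.0564 to 0.0644) and in series B alone (0.0669).

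Ephb4, the venous receptor of ephrin-B2 (chr5:137350109-137378669, plus strand), was the EphB receptor that was called. It had 2.76, 2.25 and 2.35 CPM in whole astrocyte TRAP and 4.69, 71.2, 102, 74.5, 80.5 and 3.20 CPM in endfeet libraries 1 to 6, a log2 fold change of 4.52 (adjusted p = 0.00562, SE 1.07). Libraries 1 and 6 were thus just above the whole astrocyte values and the other 4 far above them, and the depth of library 6 puts 3 counts at 1.37 CPM. Epha4, a receptor of both ephrin classes that astrocytes also carry, had the highest level of the family in endfeet per length, 18.5 CPM per kilobase against 5.78 in whole astrocyte TRAP. It stood at 41.3, 33.4 and 35.0 CPM against 59.9 to 221 CPM (median 103), a log2 fold change of 1.67 (adjusted p = 0.00722, SE 0.41). Epha7 was higher too (2.05, adjusted p = 0.00833, SE 0.52), a call lost without whole astrocyte library 2 (0.0547). Ephb1 had the highest whole astrocyte level of the Eph receptors per length, 6.39 CPM per kilobase against 2.96 in endfeet. Its values of 26.3, 28.2 and 35.0 CPM overlapped the endfeet values of 2.25 to 28.2 CPM (median 13.7), and its log2 fold change of -1.11 (adjusted p = 0.218, SE 0.67) did not pass with edgeR and passed as lower with limma voom (-1.39, adjusted p = 0.0382). The other 7 genes not called (Epha8, Ephb2, Ephb6, Epha6, Epha10, Ephb3 and Epha5) had log2 fold changes of 3.29 down to -0.06 and overlapping groups. Of these, Ephb2 (2.98, adjusted p = 0.0851) passed as higher with DESeq2 (0.00864), limma voom (0.0163) and without endfeet library 6 (0.0175), and Epha8 (3.29, adjusted p = 0.0896) with limma voom (0.0139) and without endfeet library 1 (0.033).

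Of the 8 ephrins, 2 were higher, a share not far above the 20.7% of all genes tested. The other 6 did not pass, and the median log2 fold change of the family was 1.62. Efna1, the A-type ephrin induced in vascular cells by inflammatory signals (chr3:89271733-89281142, minus strand), had 0.351, 0.688 and 0.241 CPM in whole astrocyte TRAP. Endfeet library 1 held 3.75 CPM and the other 5 held 16.1 to 22.4 CPM (median of all 6, 18.7), and the log2 fold change was 5.26 (adjusted p = 0.000696, SE 0.92). Efnb2, the arterial partner of Ephb4 (chr8:8617434-8661242, minus strand), had 18.9, 16.9 and 21.2 CPM in whole astrocyte TRAP and 96.4, 86.6, 96.5, 108, 106 and 6.85 CPM in endfeet. Library 6, with 15 counts, lay below all whole astrocyte libraries and the other 5 lay above them. The log2 fold change of Efnb2 was 2.14 (adjusted p = 0.0208, SE 0.64), and the call was lost without any 1 of the whole astrocyte libraries (adjusted p = 0.0692 to 0.087), with the library number series as a covariate (0.0543) and in series B alone (0.117).

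The ephrins that did not pass had log2 fold changes of both signs. Efnb3, the B-type ephrin with the highest whole astrocyte level per length (6.35 CPM per kilobase against 10.6 in endfeet), had 16.8, 19.0 and 24.8 CPM against 19.5 to 67.3 CPM (log2 fold change 0.74, adjusted p = 0.282). Efna5 had 13.8, 9.13 and 11.6 CPM against 0 to 33.5 CPM, the 0 being in endfeet library 1 (0.71, adjusted p = 0.617). Efna2 had 2.33, 4.74 and 2.68 CPM against 4.86 CPM in endfeet library 3 and at most 0.575 CPM in the other 5. Its log2 fold change of -1.44 (adjusted p = 0.354, SE 1.15) passed as lower without endfeet library 3 (-2.94, adjusted p = 0.0387), in series B alone (-2.84, adjusted p = 0.0179) and with limma voom (-2.22, adjusted p = 0.0461). Efna4 (2.28, which passed with limma voom, adjusted p = 0.0481), Efna3 (1.95) and Efnb1 (1.28) had overlapping groups, and Efna3 and Efna4 share 14.6% and 10.51% of their counted transcripts with antisense genes. By length, Efna1 and Epha2 had 11.2 and 0.936 CPM per kilobase in endfeet, and Efnb2 and Ephb4 had 17.4 and 12.9.

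Slit and Robo genes were higher in 4 of 7 cases, beside 20.7% of all genes tested. Of the others 2 did not pass and Robo3 was not tested, with a median log2 fold change of 1.69 over 6. All 3 Robo receptors tested were higher, of which Robo4 entered the test through the endfeet libraries. Robo4, the Robo of endothelial cells (chr9:37401897-37415115, plus strand), had 4, 0 and 11 counts in the whole astrocyte libraries, or 0.108, 0 and 0.241 CPM. Endfeet libraries 1 to 6 held 44.7, 98.8, 102, 84.7, 83.2 and 64.0 CPM. The log2 fold change was 9.30 (adjusted p = 5.46e-06, SE 0.89), and the lowest endfeet library stood far above the highest whole astrocyte one. Slit2, the ligand with the best-known roles in axon repulsion and vessel growth, had 6.73, 6.43 and 8.34 CPM against 27.6 to 69.4 CPM (median 48.3), a log2 fold change of 2.78 (adjusted p = 0.000596, SE 0.47). Robo1, its receptor, had 22.2, 18.8 and 21.2 CPM against 41.1 to 122 CPM (median 66.9), a log2 fold change of 1.87 (adjusted p = 0.00438, SE 0.43). Robo1 was the Slit and Robo gene with the highest whole astrocyte level per length, 2.74 CPM per kilobase, and Robo4 the one with the highest endfeet level, 20.5. Robo2 was higher by 1.42 (adjusted p = 0.0196, SE 0.42), a call lost without any 1 whole astrocyte library (0.0738 to 0.118). Slit3 (1.51, adjusted p = 0.306) and Slit1 (0.72, adjusted p = 0.657) had overlapping groups.

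Sema3g and Robo4 had the largest log2 fold changes of all 65 genes tested, and their upstream sequences are shown for that reason. Both had at most 11 counts in any whole astrocyte library, as did some other guidance genes, among them Epha1 and Epha2. The 120 bases directly before each gene in the annotation used here are given on the plus strand, at chr14:31217740-31217859 and chr9:37401777-37401896 (RefSeq promoter table, GRCm38.p6). Capitals mark GGAA, the core bound by ETS factors, and GGGCGG, the GC box, on either strand. In Sema3g the second GGAA match (TTCC) and the GC box (CCGCCC) share a base.
Sema3g: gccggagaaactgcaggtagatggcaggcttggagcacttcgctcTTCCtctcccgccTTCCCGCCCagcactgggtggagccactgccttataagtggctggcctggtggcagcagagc
Robo4: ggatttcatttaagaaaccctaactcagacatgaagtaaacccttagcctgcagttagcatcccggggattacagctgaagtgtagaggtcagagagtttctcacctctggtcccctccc
The Sema3g stretch held GGAA 2 times and the GC box 1 time, and the Robo4 stretch held neither, although the whole window of Robo4 before its RefSeq start, which reaches past this stretch, did hold GGAA. These stretches stop 13 (Sema3g) and 75 (Robo4) bases short of the RefSeq start. Of the 68 genes, 59 had an entry in the RefSeq table. In the 250 bases before the RefSeq start, GGAA was found in 53 of 59, against 93.2% of 21263 protein-coding promoters, GGGCGG in 42 of 59 against 42.6%, and TATAAA in 2 of 59 against 11.6%. GGGCGG was present in 23 of 30 higher genes and in 19 of 29 others.

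Netrins and Unc5 receptors were higher in 4 of 8 cases, beside 20.7% of all genes tested. Of the others 3 did not pass and Ntn5 was not tested, with a median log2 fold change of 1.94 over 7. Ntn4, a netrin of basement membranes that binds laminin (chr10:93640681-93747207, plus strand), had 4.16, 4.84 and 3.86 CPM in whole astrocyte TRAP and 172, 146, 186, 61.8, 97.2 and 12.8 CPM in endfeet libraries 1 to 6. Library 6 was the lowest but still above the whole astrocyte range, and the log2 fold change was 4.71 (adjusted p = 0.000379, SE 0.76). Ntn1, the founding netrin (chr11:68209364-68400823, minus strand), had 1.16, 3.41 and 3.58 CPM against 35.2 to 107 CPM (median 65.6), a log2 fold change of 4.64 (adjusted p = 0.000113, SE 0.64). Unc5b, the netrin receptor of endothelium, had 4.92, 4.23 and 4.59 CPM against 18.3 to 48.0 CPM (median 36.4), with a log2 fold change of 2.95 (adjusted p = 0.000962, SE 0.54). These 3 genes had no overlap between groups. Unc5c had the highest whole astrocyte level of the family per length (1.49 CPM per kilobase against 4.64 in endfeet), with 16.5, 12.41 and 14.2 CPM against 17.8 to 107 CPM (median 32.3). Its call (1.64, adjusted p = 0.0479, SE 0.60) was lost in 11 alternatives, among them without endfeet library 4, its highest (1.04, adjusted p = 0.13), without endfeet library 2, 3 or 5 (0.0561, 0.0537 and 0.0998) and without any 1 whole astrocyte library (0.116 to 0.168). Unc5d (1.94, adjusted p = 0.101), Unc5a (1.12, adjusted p = 0.394) and Ntn3 (1.06, adjusted p = 0.574) did not pass, but Unc5d passed with DESeq2 (0.0359), limma voom (0.0157) and without endfeet library 6 (0.0259).

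**Figure D5:**
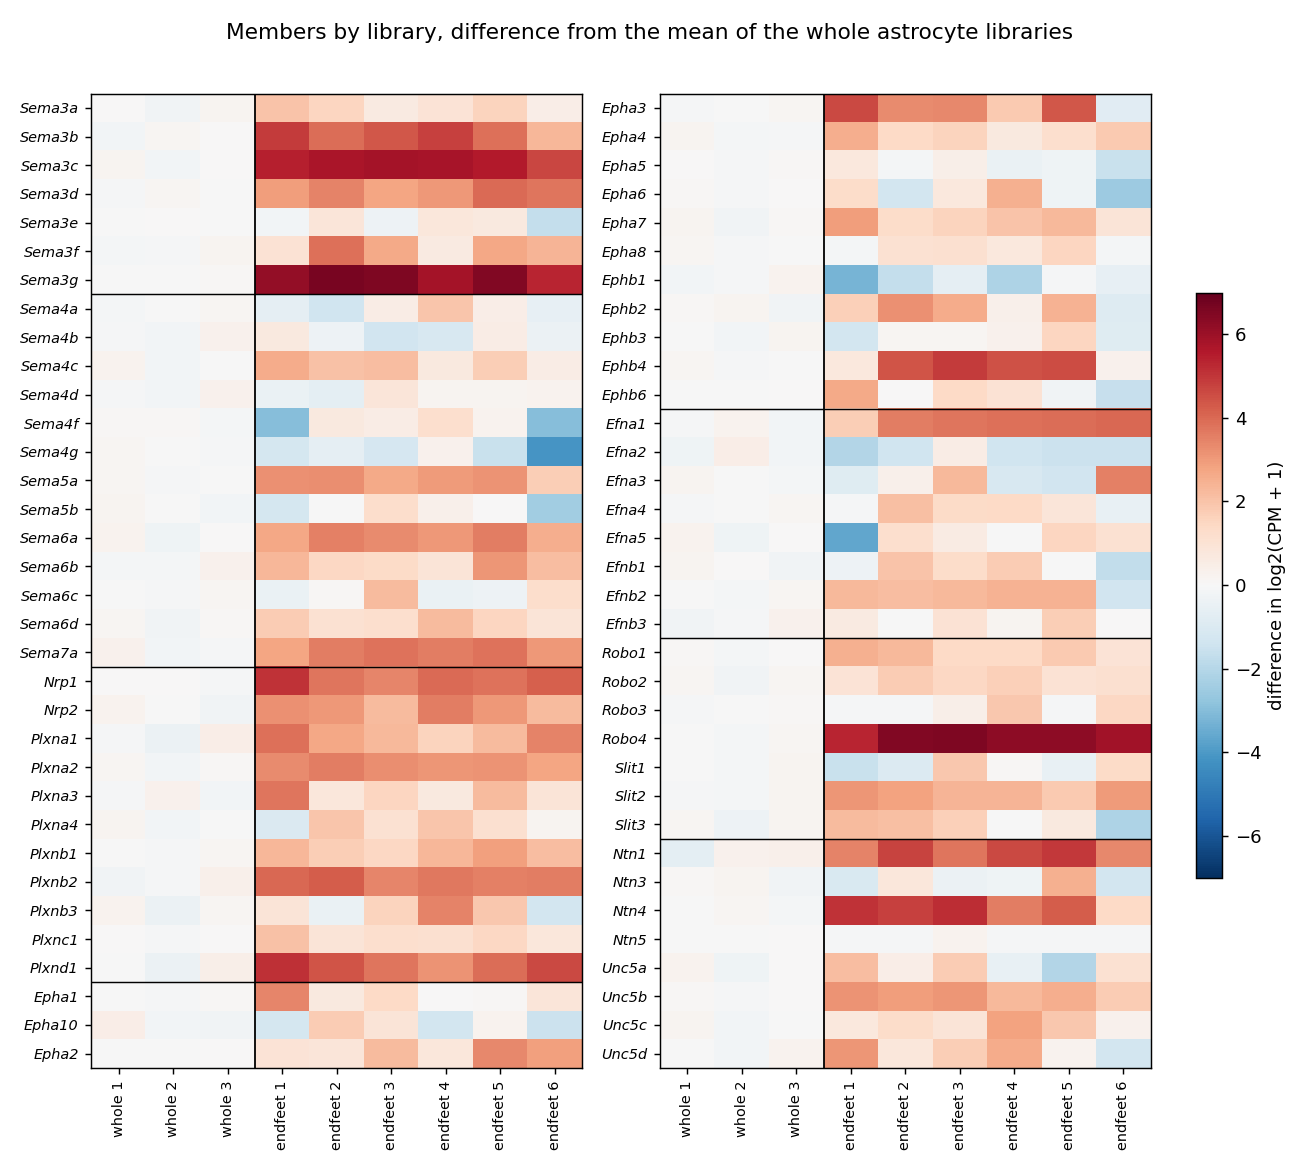
Difference of each guidance gene in each of the 9 libraries from its mean over the whole astrocyte libraries, in log2(CPM + 1), with red above and blue below 0 and families set apart by lines. Sema3g, Sema3c and Robo4 are deep red in all endfeet columns, whereas Efnb2 is blue and Ephb4 pale in endfeet library 6.

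Genes of the same pathways outside these families had calls in both directions. Of 67 co-receptors, extracellular partners and intracellular mediators, 12 (17.9%) were higher, 41 did not pass and 14 (20.9%) were lower. Over all genes tested, 20.7% were higher and 13.9% lower. The median log2 fold change of these partners was 0.06 against 0.10 over all genes. Neogenin (Neo1), the netrin and RGM receptor, had 66.7, 56.3 and 70.4 CPM against 204 to 453 CPM (median 298), a log2 fold change of 2.26 (adjusted p = 9.85e-05, SE 0.30). Dcc, the other netrin receptor of this kind, had 4.49, 4.53 and 4.41 CPM against 0 to 5.01 CPM (median 0.369) and did not pass (-1.80, adjusted p = 0.29, SE 1.26).

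The 3 largest higher changes among these partners were of a kinase and of 2 cell surface proteins. Fes, a tyrosine kinase that acts downstream of plexins, had 0.162, 0.344 and 0.329 CPM against 0 to 19.2 CPM, with the 0 in endfeet library 1 (4.94, adjusted p = 0.0183, SE 1.45). Flrt2, a surface ligand of Unc5 receptors, had 35.6, 30.3 and 34.7 CPM against 257 to 547 CPM (median 366), a log2 fold change of 3.51 (adjusted p = 5.28e-06, SE 0.33). Adam10, a protease that cleaves ephrins, had 17.0, 19.2 and 17.4 CPM against 62.6 to 143 CPM (2.56, adjusted p = 0.000159, SE 0.37). The 3 largest lower changes were of cytoplasmic proteins. Ngef, an exchange factor that acts downstream of EphA receptors, had 209, 242 and 232 CPM against 9.38 to 64.7 CPM (median 38.8), a log2 fold change of -2.66 (adjusted p = 0.000605, SE 0.45). Trim9, a ubiquitin ligase of netrin signalling, had 691, 665 and 681 CPM against 41.1 to 207 CPM (-2.65, adjusted p = 0.000263, SE 0.41). Cfl1, the actin-severing cofilin, had 40.5, 41.4 and 40.7 CPM against 1.88 to 11.7 CPM (-2.59, adjusted p = 0.0026, SE 0.55).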

How the data were processed

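RNA from 3 whole astrocyte TRAP and 6 endfeet TRAP samples was sequenced. The authors aligned the reads to mm10 with Bowtie, kept uniquely aligned ones and deposited raw counts per Ensembl 75 transcript made with HTSeq-count, without normalization or filtering; whether strand was used is not given in the sources used here. What separates the number series of the libraries, A (endfeet 1 to 3) and B (all others), is not stated.

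Of 75466 transcripts, 73164 in 22092 genes matched GENCODE M21, and only the transcript of a gene with the highest summed CPM was used. Groups were compared with edgeR 4.0.16 in R 4.3.3 (TMM, filterByExpr, glmQLFit, glmQLFTest) over all genes, calling adjusted p-values (Benjamini-Hochberg) below 0.05. The SE is the absolute log2 fold change over the square root of F. Printed CPM are TMM-normalized. Alternatives used DESeq2 1.42.0, limma 3.58.1 (voom with group weights), other filters, thinning of every library to 2319495 counts, the number series, the replicate block and leaving out each library. A p-value that misses the threshold does not show equal levels. P-values from edgeR rest on 1 estimate per gene of the spread between samples. Both groups share that estimate, although the endfeet libraries varied far more, and only voom with group weights let the spread differ between groups. Intervals cover counting error only, and amplified reads are not independent molecules.

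Guidance genes and lists were chosen with earlier results of these data known. In each family, full values are given for up to 3 genes per direction with the largest change past the threshold and for the gene with the highest level per length in each group, and for partners the 3 largest in each direction. Other guidance genes given in full, and Neo1 and Dcc, were chosen after their values were seen.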

Additional observations from a re-analysis of the deposited data

Results flagged for a closer look

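In 5 of 65 guidance genes tested, 1 endfeet library stood apart from the other 5 by Dixon's criterion on log2(CPM + 1), where the gap to the nearest library, as a ratio of the range of all 6, exceeded the 95% critical value. Chance flags about 1 in 20 groups, and 5 of 65 is not far above that share. Efnb2 had the largest ratio, 0.917, with 6.85 CPM in library 6 and 86.6 CPM in the next lowest. Sema3c was also lowest in library 6 (ratio 0.627, 86.8 against 144 CPM). Library 1 was lowest for Efna1 (0.803, 3.75 against 16.1 CPM) and for Efna5 (0.703, 0 against 11.03 CPM). Efna2 was highest in library 3 (0.743, 4.86 against 0.575 CPM). Of these 5 genes 4 were ephrins, and libraries 1 and 6 accounted for 4 of the 5, but neither count was tested. Libraries 6 and 1 had the smallest gene totals of the endfeet group, 2319495 and 6511709 counts, and the part of depth in these values was not tested.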

How the results depend on the processing

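Of 35 guidance genes called higher, 24 were tested and kept their call in all 19 alternatives, and Epha2 kept it in the 18 that tested it. Of 30 that did not pass, 20 passed in no alternative that tested them, 14 of these having a value in all 19. No guidance gene changed sign while called. The count of lower guidance genes, 0 as reported, was 2 with limma voom, 1 in series B alone and 0 to 1 when 1 library was left out, and the cause was not tested. The count of called guidance genes was 32 (no filter beyond 1 count) to 44 (voom), and 25 to 38 when 1 library was left out. Over all genes, calls were 4948 (no filter beyond 1 count) and 8424 (voom). They were 3071 without whole astrocyte library 2 and 5744 without endfeet library 6. With the replicate block 33 guidance genes were higher, 32 of them among the 35 (Robo2, Sema6b and Unc5c were lost), with 9 partners higher and 13 lower. Libraries with the same number did not deviate together (correlations -0.04, 0.02 and 0.04), so a pairing by number was not seen. Given the wide spread of the endfeet libraries, these correlations could miss a weak pairing. Genes tested in both this fit and the reported one shifted by a median of -0.25 (voom), -0.21 (replicate block), -0.13 (series B alone) and 0.15 (thinned) in log2 fold change. The medians over all genes tested were -0.29, -0.22, -0.16 and 0.21 in the same order, and the guidance medians were 1.83, 2.05, 1.78 and 2.46. Leaving out endfeet libraries 1 and 6 was chosen after seeing the data. Depth limits the low genes: in endfeet library 6, 3 counts are 1.37 CPM, so values below that rest on 1 or 2 counts.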
